A study of Mus musculus with 6 samples.

Results

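The DNA replication licensing and synthesis genes described here are 46 genes chosen by name. They encode the proteins that mark and open replication origins, the enzymes that copy DNA, the enzymes that supply its nucleotides, and a few regulators of entry into S phase. The RNA came from sorted cells that the labels call collecting duct. They were from newborn Cre-carrying mice with floxed or wild-type alleles of the bradykinin B2 receptor gene Bdkrb2. All 46 were on the array under a name, and 45 met the criterion for testing, Cy5 signal well above background for 1 probe or more on 3 of the 6 arrays, which 14755 genes met in all. The gene left out was Ccne2, one of the E-type cyclins that drive entry into S phase. Its 1 probe stood above background on 0 arrays, so no difference is given for it.

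RNA was compared between 3 knockout (KO) and 3 wild-type (WT) samples on two-colour Agilent arrays. The KO pups were Hoxb7cre+ with both Bdkrb2 alleles floxed, the WT pups were Hoxb7cre+ with unfloxed Bdkrb2+/+, and both carried the R26RtdTomato reporter on a C57BL/6 strain. All animals, KO and WT, were on food with 5% sodium, and the samples held no unsalted group. Kidneys were taken at postnatal day 1 and cells sorted for both GFP and dsRED. The only mating in the labels is between floxed parents, which yields no Bdkrb2+/+ pups, and the labels do not say which litters the WT pups came from. Hoxb7-driven Cre acts in the ureteric bud lineage, so the deletion was not meant for other kidney cells. The labels do not say how many animals went into a sample, so p-values measure only the spread between these samples. Every array carried the sample RNA in Cy5 and the RNA of WT replicate 1 in Cy3, so each value is a log2 ratio to that reference and the array of WT replicate 1 set this RNA against itself.

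Per array, 56.6% to 57.5% of the spots in KO and 49.8% to 52.7% in WT were well above background in Cy5, and no spot was saturated. The median processed Cy5 signal was 39.2 to 44.1 on the KO arrays and 18.5 to 20.6 on the WT arrays. Signal strength thus differed with group, and its part in the ratios was not tested. The probe of Bdkrb2 was above background on none of the arrays and did not check the genotype. Of all genes tested, 35.3% passed the test, 15.4% as higher and 20.0% as lower in KO, with a threshold of 0.05 on the limma p-value after Benjamini-Hochberg adjustment over all genes. Markers of the labelled cell type were detected, apart from Scnn1g, a sodium channel subunit gene that was above background on 0 arrays, but were unequal between groups. Of 11 tested principal cell markers 11 were lower in KO, and of 10 intercalated cell markers 10 were lower. Of 10 nephron progenitor markers 9 were higher in KO, as were 10 of 12 stroma markers.

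Before a cell copies its DNA, the origin recognition complex (ORC) binds an origin in G1. With Cdc6 and Cdt1 it then loads the ring-shaped MCM helicase, a step called licensing. In S phase the GINS complex and Cdc45 join MCM to form the active helicase, primase and DNA polymerase alpha start new strands, the clamp PCNA is loaded by the RFC complex, and polymerases delta and epsilon extend the strands. The factors of the E2F family activate many of these genes at the G1/S boundary. In the newborn mouse kidney new nephrons are still forming, and nephron progenitors, young tubules and stroma all contain dividing cells.

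Promoter sequences are shown because most of these genes moved the same way and many genes of this kind are known E2F targets. The RefSeq table of promoters (GRCm38.p6, 250 bases before to 50 after an annotated start) held 37 of the 46 genes, and the first window listed for a gene was used. Searched letters for E2F were TTTCCCGC, TTTCGCGC, TTTGCCGC and TTTGGCGC on both strands, where matches may overlap. Of the 37 member promoters 14 (37.8%) held such a match, at a GC content of 59.2%. For the 14755 tested genes 11692 promoters were used, of which 3.73% held a match, at a GC content of 60.1%. At least 2 matches were found in 5 member promoters (13.5%), against 0.197% of the promoters of tested genes. The share with a match was not larger among the members that rose. Matches were in 9 of the 26 promoters of members that rose in KO (34.6%) and in 5 of the 11 promoters of tested members that did not pass (45.5%). Whether these shares differ was not tested.

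The first 3 sequences below belong to the members with the largest differences that the table holds. Rpa2 had the largest difference among those without a match, and Rfc3 and Gins3 held matches but did not pass the test. Each is written 5′ to 3′ on the strand of its gene, with E2F letter matches on either strand in capitals. The windows are chr1:20820263-20820562 on the minus strand for Mcm3, chr5:138171834-138172133 on the minus strand for Mcm7, chr1:128359656-128359955 on the minus strand for Mcm6, chr4:132768110-132768409 on the plus strand for Rpa2, chr5:151651159-151651458 on the minus strand for Rfc3 and chr8:95633309-95633608 on the plus strand for Gins3.
Mcm3: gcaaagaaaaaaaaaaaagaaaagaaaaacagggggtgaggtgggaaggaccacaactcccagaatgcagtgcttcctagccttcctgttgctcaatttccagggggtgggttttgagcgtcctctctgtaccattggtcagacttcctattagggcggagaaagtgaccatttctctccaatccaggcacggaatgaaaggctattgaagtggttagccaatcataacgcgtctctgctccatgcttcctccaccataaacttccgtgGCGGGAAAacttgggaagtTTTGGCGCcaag
Mcm7: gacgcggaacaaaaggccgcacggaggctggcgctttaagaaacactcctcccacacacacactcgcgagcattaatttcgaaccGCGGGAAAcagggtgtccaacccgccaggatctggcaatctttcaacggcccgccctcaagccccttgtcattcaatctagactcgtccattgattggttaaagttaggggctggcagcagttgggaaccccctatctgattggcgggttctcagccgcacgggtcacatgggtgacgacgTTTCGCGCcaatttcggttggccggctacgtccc
Mcm6: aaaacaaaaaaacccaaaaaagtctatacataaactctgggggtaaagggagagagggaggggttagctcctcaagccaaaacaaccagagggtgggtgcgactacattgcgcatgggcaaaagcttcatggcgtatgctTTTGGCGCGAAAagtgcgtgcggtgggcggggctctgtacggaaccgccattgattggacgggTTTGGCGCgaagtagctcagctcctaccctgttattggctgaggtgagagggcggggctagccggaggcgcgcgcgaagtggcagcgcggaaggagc
Rpa2: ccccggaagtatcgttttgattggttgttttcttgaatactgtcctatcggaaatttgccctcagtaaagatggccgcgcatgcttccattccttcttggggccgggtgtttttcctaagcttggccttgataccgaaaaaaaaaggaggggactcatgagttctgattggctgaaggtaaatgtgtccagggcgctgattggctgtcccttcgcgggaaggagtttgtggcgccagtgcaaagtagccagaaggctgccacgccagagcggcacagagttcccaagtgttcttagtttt
Rfc3: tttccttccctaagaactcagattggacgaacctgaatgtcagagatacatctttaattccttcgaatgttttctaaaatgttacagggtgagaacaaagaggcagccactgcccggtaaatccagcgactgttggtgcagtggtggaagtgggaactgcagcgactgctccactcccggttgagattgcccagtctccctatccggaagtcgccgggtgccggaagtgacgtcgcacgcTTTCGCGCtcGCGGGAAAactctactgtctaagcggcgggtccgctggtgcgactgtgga
Gins3: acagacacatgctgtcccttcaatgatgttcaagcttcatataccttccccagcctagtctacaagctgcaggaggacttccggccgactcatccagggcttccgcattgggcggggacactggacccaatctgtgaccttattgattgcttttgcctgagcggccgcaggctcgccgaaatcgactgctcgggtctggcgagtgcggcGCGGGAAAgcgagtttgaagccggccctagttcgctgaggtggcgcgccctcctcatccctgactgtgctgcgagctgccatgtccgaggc
Counted from the annotated start at 0, with bases before it negative, the matches of Mcm3 began at 19 and 38 and those of Mcm7 at -165 and 16. Those of Mcm6 began at -110, -106 and -47, the first pair overlapping. The matches of Rfc3 began at -10 and 0, and that of Gins3 at -41. A match describes these letters only and does not show that a factor binds there. The CCAAT box (CCAAT) was in 59.5% of member promoters and 38.3% of the promoters of tested genes. The Sp1 letters GGGCGG were in 70.3% and 61.1%, and the cell cycle homology letters TTTGAA or TTCGAA in 16.2% and 14.1%.

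Most of the replication genes were higher in KO cells. Of 45 tested members 33 (73.3%) rose in KO and 0 fell, where 15.4% of all genes tested were called higher. All 45 differences were above 0, and their median was 0.49 on the log2 scale, a fold of 1.41, against -0.02 for all genes tested. Unadjusted p-values were under 0.05 for 36 members. Folds ranged between 1.02 and 2.15, with 15 members at 1.5 or more and 1 at 2 or more. For 39 members all 3 KO values lay above all 3 WT values, which held for 24.0% of all genes tested. Over the alternative settings 14 to 37 members rose, while 4.99% to 20.4% of all genes were called higher. Median centring in place of loess gave larger differences, with a median of 0.79 for the members and 0.24 for all genes. In bulk RNA, a change in the number of cells of a type and a change in RNA per cell cannot be told apart.

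**Figure D1:**
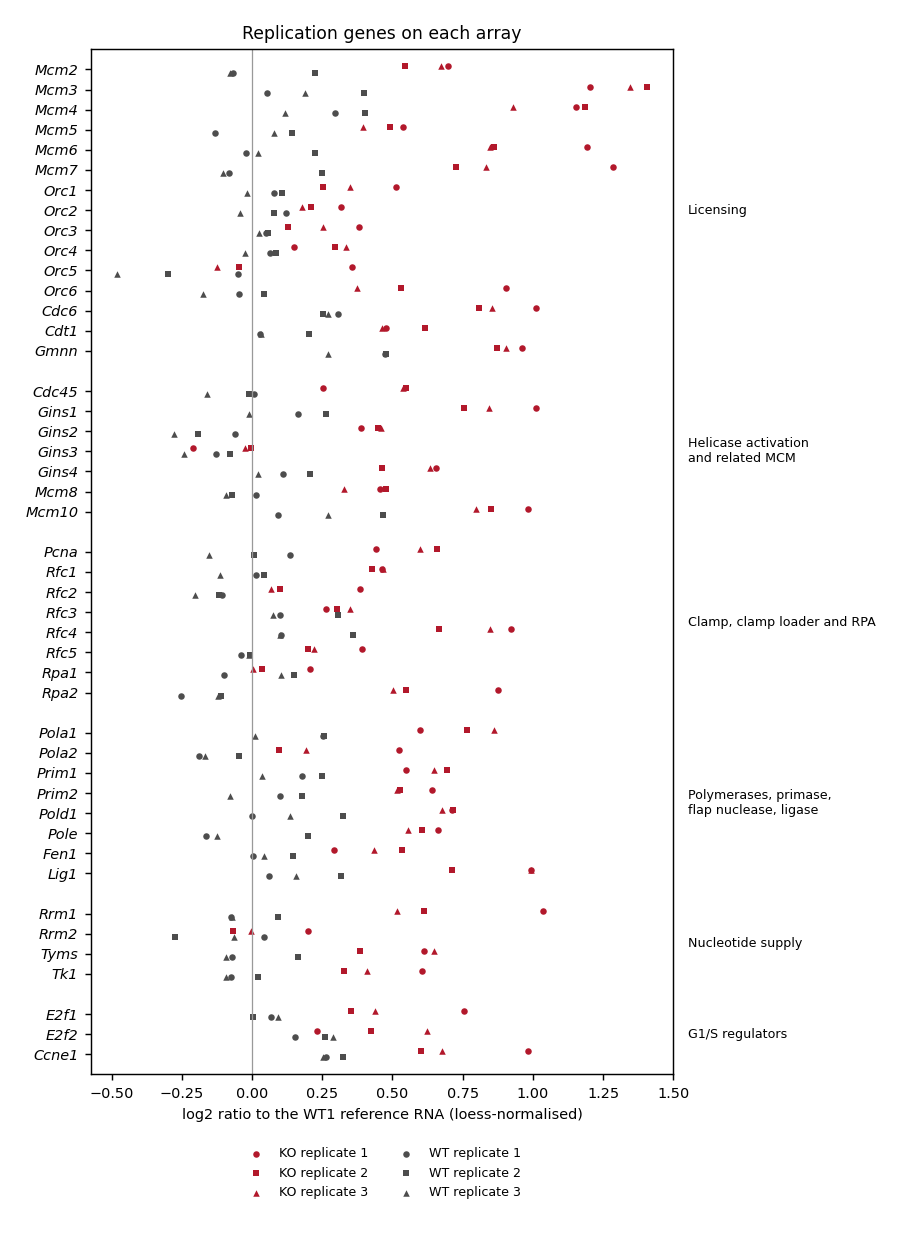
Log2 ratio of sample RNA to the WT1 reference (x axis, loess-normalised) for each tested replication gene (y axis, grouped by role) on the 3 KO and 3 WT arrays, 1 point per array. For 39 of 45 genes the KO points all lie to the right of the WT points, and the KO replicate 1 point is the rightmost KO point for 28 genes.

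The MCM helicase genes were among the members with the largest differences, in an order that differed between scalings. Mcm3 had log2 ratios of 1.20, 1.41 and 1.34 in KO, against 0.05, 0.40 and 0.19 in WT, a difference of 1.10 ± 0.12 (moderated SE, n = 3 arrays per group in this and all later differences) and a fold of 2.15 (adjusted p = 0.00047). Every KO array was above every WT array. With the Agilent ratios Mcm3 gave 1.22, and Cdc6, Mcm7, Cdc45 and Mcm4 also reached 1.00 or more (1.06, 1.05, 1.03 and 1.00). The MCM subunit genes Mcm2 to Mcm7 encode a hexamer that unwinds DNA, and all 6 rose, where 15.4% of all genes tested did.

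Mcm6 had log2 ratios of 1.19, 0.86 and 0.85 in KO, against -0.02, 0.23 and 0.02 in WT (difference 0.89 ± 0.13, adjusted p = 0.00163). Mcm4 had 1.16, 1.18 and 0.93 in KO, against 0.29, 0.40 and 0.12 in WT (0.82 ± 0.12, adjusted p = 0.00166). The KO and WT values of both were well apart. Mcm7 differed by 0.93 ± 0.17 with the widest spread of any member in KO (SD 0.30), since its ratio was 1.28 on KO replicate 1, against 0.73 and 0.83 on the other KO arrays. Mcm2 and Mcm5 gave the smaller differences of 0.61 ± 0.12 and 0.45 ± 0.11, and the call of Mcm5 was lost without KO replicate 2 and without WT replicate 1.

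Fewer of the origin recognition genes passed. ORC is built of 6 subunits, and Orc6 alone passed the test, 1 gene of 6, near the 15.4% of all genes called higher. Orc6 had log2 ratios of 0.91, 0.53 and 0.37 in KO, against -0.05, 0.04 and -0.17 in WT (0.66 ± 0.15, adjusted p = 0.0108). KO replicate 1 was the highest, and all KO values were above those of WT. The call of Orc6 was lost without WT replicate 3. Orc1, Orc2, Orc3, Orc4 and Orc5 gave 0.32, 0.18, 0.21, 0.22 and 0.34, with adjusted p between 0.0515 and 0.192. Orc1, whose signal was the lowest of the tested members, was called with the Agilent ratios, at a difference of 0.97. It was also called with the deposited series matrix (0.97), Cy5 scaled without Cy3 (1.00) and no background correction (0.45). The same held without the filter on dim probes, with the mean of probes and with array weights. Second probes of Orc3 and Orc4 gave -0.20 ± 0.10 and -0.20 ± 0.15, the opposite sign to the probes used, so neither gene has a settled direction. Whether Orc6 differs from the other subunits was not tested.

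The loading factors rose together with their inhibitor. Cdc6 had log2 ratios of 1.01, 0.81 and 0.85 in KO, against 0.31, 0.25 and 0.27 in WT (0.62 ± 0.10, adjusted p = 0.00245), and its second probe gave 0.65 ± 0.13. The Cy5 signal of Cdc6 is low. In units of the 75th percentile of its array it was 0.57, 0.49 and 0.58 in KO, against 0.29, 0.29 and 0.24 in WT, a larger ratio than the one fitted. Cdt1 differed by 0.43 ± 0.10 and lost its call without KO replicate 2, WT replicate 1 or WT replicate 3. Gmnn encodes geminin, which binds Cdt1 and blocks relicensing in S and G2. It rose by 0.50 ± 0.10 (adjusted p = 0.00686), with 0.96, 0.87 and 0.90 in KO, against 0.48, 0.48 and 0.27 in WT.

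Of the 7 genes of helicase activation and related MCM proteins 6 rose, where 15.4% of all genes tested did. Gins1 had log2 ratios of 1.01, 0.76 and 0.84 in KO, against 0.16, 0.26 and -0.01 in WT (0.73 ± 0.12, adjusted p = 0.00247). Gins2 had 0.39, 0.45 and 0.46 in KO, against -0.06, -0.19 and -0.28 in WT (0.61 ± 0.10, adjusted p = 0.00271). In both, KO and WT were apart by more than the spread within either. Gins4 rose by 0.47 ± 0.11, but without WT replicate 3 it did not pass.

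The fourth GINS subunit gene, Gins3, did not pass. It had -0.21, -0.01 and -0.02 in KO, against -0.13, -0.08 and -0.24 in WT, a difference of 0.07 ± 0.11 (adjusted p = 0.642), and the groups overlapped. The difference between subunits was not tested. Mcm10, which links the helicase to polymerase alpha, rose by 0.60 ± 0.12, with 0.98, 0.85 and 0.80 in KO, against 0.09, 0.47 and 0.27 in WT. Mcm8, a helicase of recombination that is no subunit of the licensing hexamer, rose by 0.47 ± 0.10, and its second probe gave 0.46 ± 0.12. Cdc45, the helicase partner of MCM and GINS, had a low Cy5 signal of 0.19 to 0.24 in KO and 0.11 to 0.14 in WT, in units of the 75th percentile. It rose by 0.50 ± 0.12 and lost its call without WT replicate 3.

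**Figure D2:**
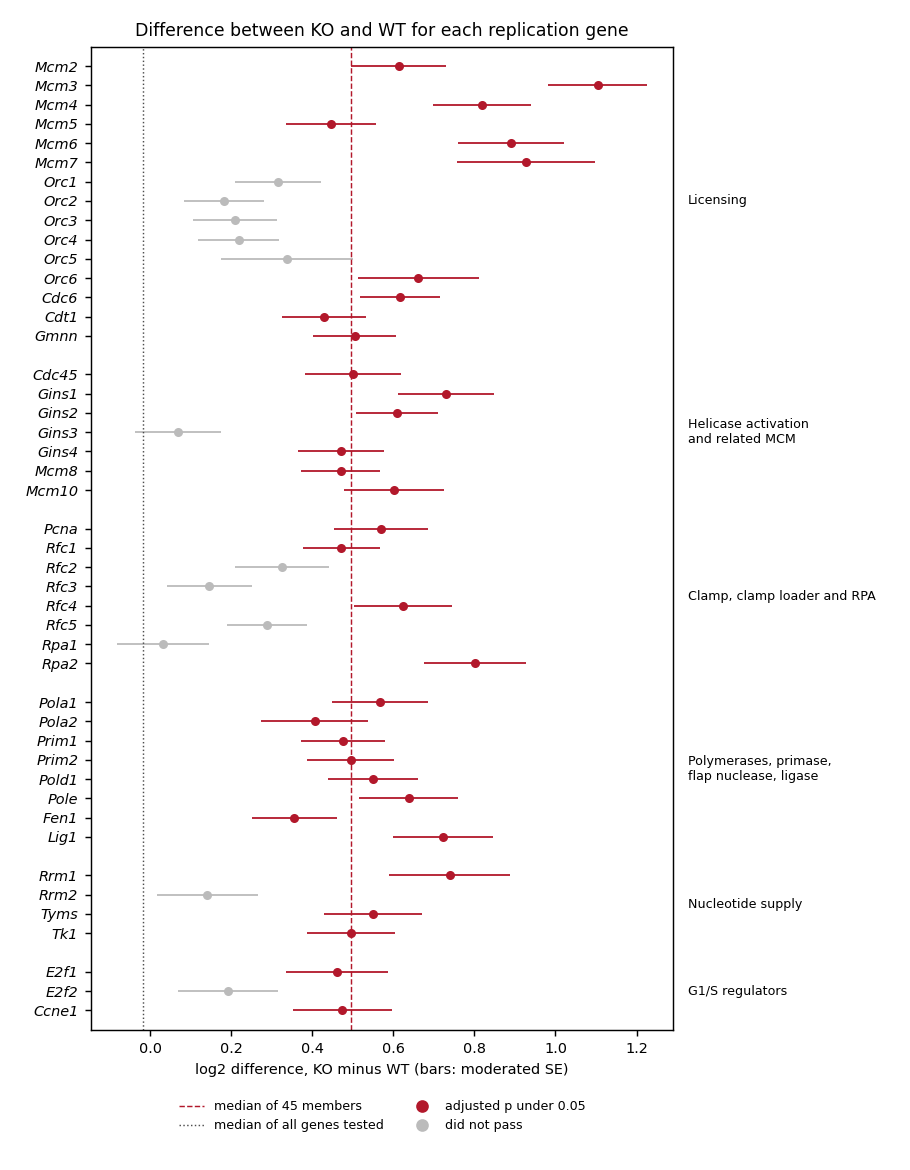
Log2 difference between KO and WT (x axis, bars are moderated SE, n = 3 arrays per group) for the 45 tested replication genes (y axis, grouped by role). Red points passed the test and grey points did not. The dashed line is the member median, 0.49, and the dotted line the median of all genes tested, -0.02.

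Of the 8 clamp, clamp loader and RPA genes 4 rose, where 15.4% of all genes tested did. Rpa2, a subunit of the RPA complex that coats single-stranded DNA, had log2 ratios of 0.88, 0.55 and 0.50 in KO, against -0.25, -0.11 and -0.12 in WT (0.80 ± 0.13, adjusted p = 0.00216). Rpa1, the largest subunit of that complex, had 0.21, 0.04 and 0.01 in KO, against -0.10, 0.15 and 0.10 in WT (0.03 ± 0.11, adjusted p = 0.845). The values of Rpa1 overlapped, and the sign of its difference turned without KO replicate 1 or WT replicate 1. The difference between the subunits was not tested. Pcna had 0.44, 0.66 and 0.60 in KO, against 0.14, 0.01 and -0.15 in WT (0.57 ± 0.12, adjusted p = 0.00685).

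Among the clamp loader genes Rfc4 and Rfc1 passed. Rfc4 had log2 ratios of 0.92, 0.66 and 0.85 in KO, against 0.10, 0.36 and 0.10 in WT (0.62 ± 0.12, adjusted p = 0.00535), and a second probe gave 0.61 ± 0.11. Rfc1, the large subunit, had 0.46, 0.43 and 0.47 in KO, against 0.01, 0.04 and -0.11 in WT (0.47 ± 0.10, adjusted p = 0.00664). The KO arrays were alike for Rfc1 (SD 0.02). Rfc2, Rfc5 and Rfc3 gave 0.33, 0.29 and 0.15 without passing (adjusted p = 0.0611, 0.0533 and 0.31), and for Rfc3 the KO and WT values overlapped.

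The polymerase, primase, flap nuclease and ligase genes all rose, 8 of 8, where 15.4% of all genes tested did. Lig1 encodes the ligase that joins Okazaki fragments. It had log2 ratios of 0.99, 0.71 and 0.99 in KO, against 0.06, 0.32 and 0.16 in WT (0.72 ± 0.12, adjusted p = 0.00305). Pole, the catalytic subunit gene of the leading-strand polymerase epsilon, had 0.66, 0.61 and 0.56 in KO, against -0.16, 0.20 and -0.12 in WT (0.64 ± 0.12, adjusted p = 0.00518). A second Pole probe stood above background on 0 arrays.

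Pold1, the catalytic subunit gene of polymerase delta, had log2 ratios of 0.71, 0.72 and 0.68 in KO, against 0.00, 0.32 and 0.14 in WT (0.55 ± 0.11, adjusted p = 0.00661). Pola1, that of polymerase alpha, had 0.60, 0.77 and 0.86 in KO, against 0.25, 0.26 and 0.01 in WT (0.57 ± 0.12, adjusted p = 0.00776). Pold1 was nearly constant over the KO arrays. The primase genes Prim1 and Prim2 rose by 0.48 ± 0.10 and 0.50 ± 0.11, and Prim1 lost its call with Cy5 scaled without Cy3 (adjusted p = 0.0678). Fen1, the flap nuclease that trims Okazaki fragments, rose by 0.36 ± 0.11, a call that 4 of the 6 fits with 1 array left out did not keep (KO replicate 2, KO replicate 3, WT replicate 1 and WT replicate 3). Pola2, the accessory subunit gene of polymerase alpha, rose by 0.41 ± 0.13 with an adjusted p of 0.045, and 10 of 17 alternatives ended this call.

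Among the nucleotide supply genes, Rrm1, Tyms and Tk1 rose and Rrm2 did not pass. Ribonucleotide reductase, the enzyme that makes deoxyribonucleotides, is built of a large subunit, Rrm1, and a small one, Rrm2. Rrm1 had log2 ratios of 1.04, 0.61 and 0.52 in KO, against -0.08, 0.09 and -0.07 in WT (0.74 ± 0.15, adjusted p = 0.00659). Rrm2 had 0.20, -0.07 and -0.00 in KO, against 0.04, -0.27 and -0.06 in WT (0.14 ± 0.12, adjusted p = 0.413), and its groups overlapped. The difference between the subunits was not tested. Tyms, thymidylate synthase, had 0.61, 0.39 and 0.65 in KO, against -0.07, 0.16 and -0.09 in WT (0.55 ± 0.12, adjusted p = 0.00945). Tk1, thymidine kinase, had 0.60, 0.33 and 0.41 in KO, against -0.07, 0.02 and -0.09 in WT (0.49 ± 0.11, adjusted p = 0.00956).

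Of the G1/S regulators, E2f1 and Ccne1 rose and E2f2 did not pass. Ccne1, the gene of cyclin E1, had log2 ratios of 0.98, 0.60 and 0.68 in KO, against 0.26, 0.33 and 0.25 in WT (0.47 ± 0.12, adjusted p = 0.0185), and a second probe gave 0.37 ± 0.11. E2f1, an activating E2F factor, had 0.75, 0.35 and 0.44 in KO, against 0.07, 0.00 and 0.09 in WT (0.46 ± 0.13, adjusted p = 0.023). Both groups of 3 were apart in each gene, but E2f1 lost its call when any single WT array was left out, and Ccne1 without WT replicate 1 or WT replicate 3. The call of Ccne1 was also lost with the Agilent ratios, the deposited series matrix and Cy5 without Cy3 (adjusted p = 0.0508, 0.0505 and 0.0738). E2f2 had 0.23, 0.42 and 0.62 in KO, against 0.15, 0.26 and 0.29 in WT (0.19 ± 0.12, adjusted p = 0.258).

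The arrays of a group differed among themselves in a shared way. The median log2 ratio of the 45 members was 0.60, 0.53 and 0.52 on KO replicates 1 to 3, against 0.03, 0.15 and -0.01 on WT replicates 1 to 3. KO replicate 1 gave the highest KO value for 28 of the 45 members, and WT replicate 2 the highest WT value for 34. WT replicate 3 gave the lowest WT value for 27. The SD of the per-array member median within groups was 0.067. For single members the SD had a median of 0.12 in KO and 0.11 in WT. Without WT replicate 3, 25 members rose (55.6%, against 8.62% of all genes), and without WT replicate 1, the array of the reference RNA against itself, 27 rose (60.0%, against 11.9%).

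The position on the slide was not balanced over the groups. The 3 KO arrays and that of WT replicate 1 lay in row 1 of the slide, and WT replicates 2 and 3 in row 2. With slide row as a block, KO is set against WT replicate 1 alone, the reference RNA against itself, and WT replicates 2 and 3 add only to the estimate of the spread. The lone WT array is thereby assumed to vary like the others. In this fit 14 members rose (31.1%, against 4.99% of all genes) and 0 fell, with a member median of 0.47. In the same arrays all KO values lay above that of WT replicate 1 for 42 of 45 members (93.3%), against 32.2% of all genes, which is the same comparison given as a count. The 14 members called with the block were Mcm2, Mcm3, Mcm4, Mcm5, Mcm6, Mcm7, Cdc6, Gins1, Mcm10, Rfc4, Rpa2, Pold1, Pole and Lig1.

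**Figure D3:**
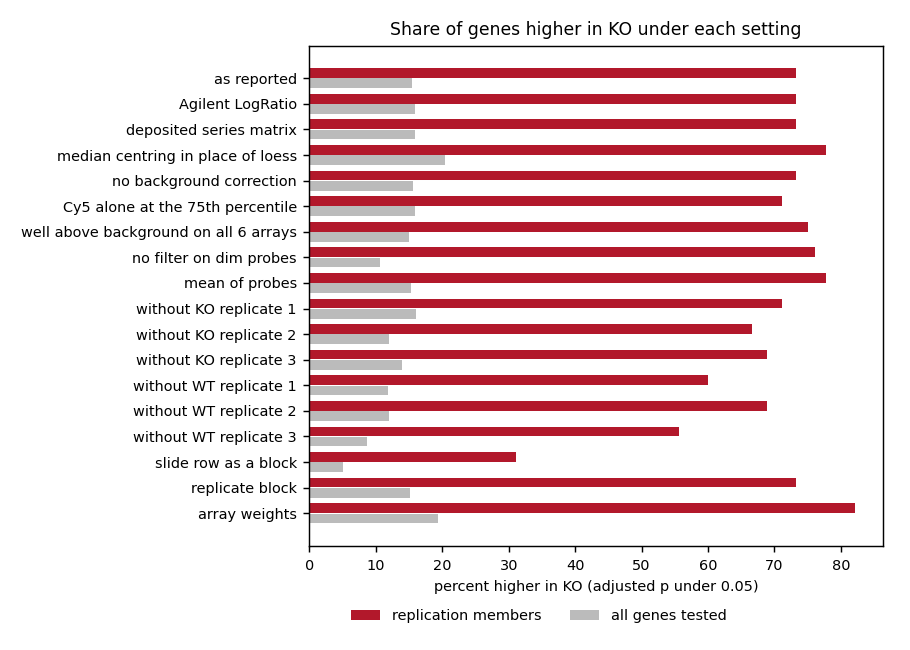
Percent of genes called higher in KO (x axis, adjusted p under 0.05) under each setting (y axis) for the replication members, in red, and all genes tested, in grey. The members' share was 73.3% as reported, lowest with slide row as a block (31.1%) and above that of all genes in each setting.

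Other genes of DNA replication were also higher in KO. Of 39 further genes of this process, all tested, 25 rose in KO and 0 fell, where 15.4% of all genes rose. Their median was 0.47, and 36 differences were above 0. Pole2, a subunit gene of polymerase epsilon, rose by 0.85 ± 0.10, Dscc1, of the alternative clamp loader for sister chromatid cohesion, by 0.88 ± 0.10, and the fork protection gene Timeless by 0.82 ± 0.12 (adjusted p = 0.000558, 0.00067 and 0.00179). Without WT replicate 3, 16 of the 39 rose, where 8.62% of all genes did, and with slide row as a block 11, where 4.99% did.

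Genes of mitosis were higher as well. Of 19 tested mitosis genes 17 rose and 0 fell, with a median of 0.56, where 15.4% of all genes rose. The kinetochore motor gene Cenpe rose by 0.99 ± 0.11, the topoisomerase gene Top2a by 0.85 ± 0.12 and the proliferation marker Mki67 by 0.64 ± 0.10 (adjusted p = 0.000539, 0.00144 and 0.00175). The 2 mitosis genes that did not pass also had differences above 0. With slide row as a block 6 of the 19 rose, where 4.99% of all genes did.

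Of 24 tested genes that govern the G1/S step 8 rose and 4 fell, with a median of 0.08, where 15.4% of all genes rose and 20.0% fell. The number that fell is near that background. Ccna2, the gene of cyclin A2, which acts in S phase and G2, rose by 0.79 ± 0.11 (adjusted p = 0.00109). The cyclin-dependent kinase inhibitor genes Cdkn1a and Cdkn2b fell, with differences of -0.83 ± 0.10 and -1.09 ± 0.14 (adjusted p = 0.00056 and 0.000857). With the Agilent ratios the difference of Cdkn2b was -1.88. The other two that fell, named after their values were seen, were the retinoblastoma gene Rb1 (-0.81 ± 0.14) and the inhibitor gene Cdkn2d (-0.50 ± 0.11). The calls of Cdkn1a, Rb1 and Cdkn2d were lost with median centring in place of loess, at -0.58, -0.54 and -0.21, a scaling under which the median difference of all genes was 0.24. The slide row block also ended the call of Cdkn2d. Under it 4 of the 24 genes passed as higher, where 4.99% of all genes did, and 3 as lower. Of the 2219 calls over all genes in that fit 33.2% were higher and the rest lower.

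The change in replication genes stood beside changes in the mix of cell type markers. The summed Cy5 signal of the 45 members, each gene in units of the array's 75th percentile, was 397.3 to 449.1 in KO and 259.5 to 294.3 in WT. For the 10 nephron progenitor markers this sum was 71.6 to 141.3 in KO and 30.8 to 37.3 in WT. For the 12 stroma markers it was 176.4 to 223.1 in KO and 31.9 to 88.9 in WT. For the 11 principal cell markers it was 29.6 to 42.6 in KO and 151.4 to 175.8 in WT. KO and WT did not overlap in any of these sums. Nor did they in the sum over all genes tested, 107900 to 112600 in KO and 122300 to 129200 in WT. The part of the marker changes in the difference of the replication genes was not tested.

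The stroma median was 1.43 to 1.57 over the KO arrays and -1.15 to 0.12 over the WT arrays. The genes listed as ureteric tip markers had medians of 0.41 to 0.61 in KO. The medians were -0.02, 0.82 and 0.14 on WT replicates 1 to 3, so the groups overlapped through WT replicate 2 alone. Of the 8 genes on this list 1 rose, Spry1 (0.59 ± 0.19), and 1 fell, Wnt9b (-0.97 ± 0.20), near the 15.4% and 20.0% of all genes. Of 9 immune cell markers tested 7 rose and 1 fell, and 9 of 10 endothelium markers fell. Of 6 erythroid markers tested 5 fell and 1 rose, and the erythroid factor gene Klf1 stood above background on 0 arrays.

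**Figure D4:**
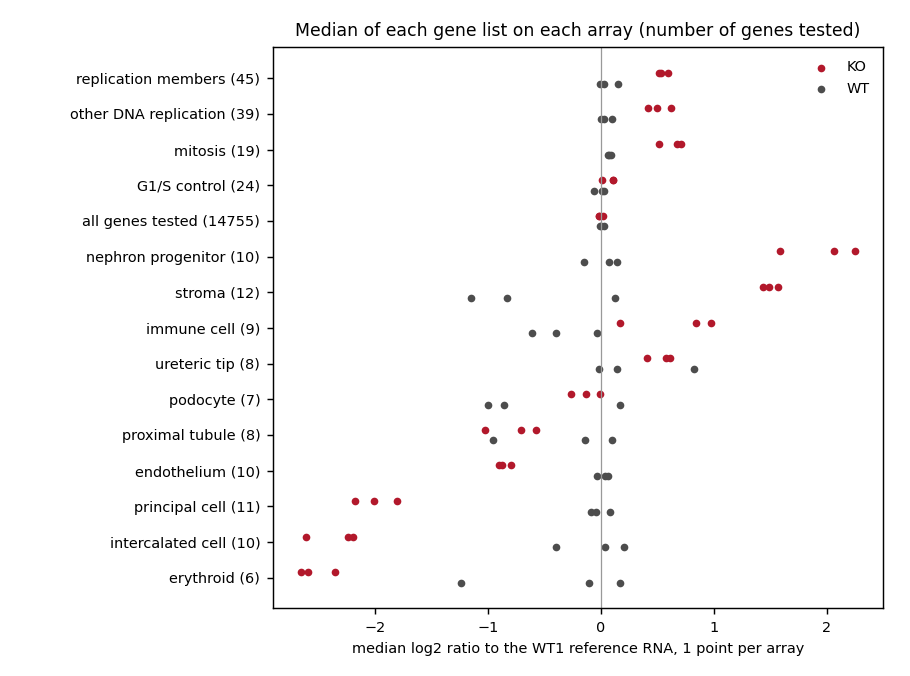
Median log2 ratio to the WT1 reference (x axis, 1 point per array, KO in red and WT in grey) for each gene list, with the number of genes tested in parentheses (y axis). The KO points of the replication members (0.52 to 0.60), the other DNA replication genes and the mitosis genes lie to the right of all WT points, while all genes tested lie near 0 in both groups.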

How the data were processed

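RNA of 3 KO and 3 WT samples was measured on 6 two-colour arrays of 62976 spots, with 0.5 µg of total RNA per labelling reaction per the labels. The median spot and background intensities were deposited by the authors, per the file headers from Agilent Feature Extraction 10.7.3.1 (the submitters' processing notes name version 6.1). The deposited log10 ratio is processed Cy5 over processed Cy3, and the deposited series matrix of log10 ratios lay within 0.00499 of it. The median of its non-control values was 0 on each array, its direction is Cy5 over Cy3, and whether it was centred again is unknown.

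Probes were named through RefSeq accessions without version (GRCm38.p6; 27509 of 55681 probes). Intensities were corrected by normexp (offset 50, which shrinks ratios of dim probes) and loess, outlier spots left out and spots of a probe averaged. The brightest passing probe stood for a gene. KO minus WT was fitted on the log2 scale with limma 3.58.1 in R 4.3.3 (2-sided, Benjamini-Hochberg over 14755 genes), and the fit was tested on simulated data. Alternatives covered scaling, filter, probe choice, left-out arrays, slide row, the replicate number and array weights. All values are arrays, whose number limits the precision.

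The members, gene lists and the rule for naming genes (per role the 4 members with the smallest p, and 3 genes per other list) were chosen with earlier results of these data known. Statistics of other members and of Rb1 and Cdkn2d were added after their values were seen.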

Additional observations from a re-analysis of the deposited data

How the results depend on the processing

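The count of 33 members higher in KO was 30 or more under all scalings, filters and probe choices tried, 25 to 32 when single arrays were left out, 37 with array weights and 14 with slide row as a block. No member was called lower in any of the 17 alternatives. The member median of 0.49 was 0.61 from the Agilent ratios and from the deposited series matrix (0.614 and 0.613), 0.65 when Cy5 was scaled without Cy3 and 0.79 with median centring. The last stood over a median of 0.24 for all genes and turned the split of calls, with 74.4% of them higher in KO, against 43.5% after loess. It was 0.46 to 0.52 without single arrays. The count over all 14755 genes was 2219 with slide row as a block and 3243 to 5709 without single arrays, and that of the 39 other replication genes was 11 and 16 to 26. With slide row as a block 6 of 19 mitosis and 7 of 24 G1/S control genes passed, beside those 2219 of all 14755 genes. Of 770 member values in the alternatives 6 changed sign, none of a called member. They were Rpa1 with array weights (-0.0141) and without KO replicate 1 or WT replicate 1 (-0.0428 to 0.082 over the left-out arrays), Rrm2 with slide row (-0.0007), and the second probes of Orc3 and Orc4 (-0.20 each). Of the 33 calls 13 held in every alternative, and the cause of the losses was not tested.

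Samples of the 2 groups share replicate numbers. Same-numbered deviations correlated at 0.135, 0.083 and 0.201, all above the differently numbered ones, which correlated at -0.153 to -0.026. The numbers were not taken as pairs in the reported fit. With a replicate block 33 members were called, gaining Orc5 and losing Pola2, and 5131 of all genes.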
